A study of Danio rerio with 24 samples.

Results

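Histone genes were described, taken as the genes that the authors' tables place in the histone family and measured in wild-type zebrafish embryos kept with or without tetrabromobisphenol A (TBBPA), a brominated flame retardant. The tables annotate 101 of 31901 gene models with that family. Of these, 3 are not histone genes by their own annotation (selenoh, sos1 and BX469901.1, an uncharacterised model inside selenoh), which leaves 98 histone gene models. By type they hold 30 H2A, 27 H2B and 29 H3 genes, and 12 that could not be typed. The annotation names the type for 53 of the 86 typed models, and the others were typed by a gene length shared with annotated models or by a shared name, so most H2B assignments are provisional. None of the 86 typed models is a linker histone H1 or an H4 gene. The typing looked only for H2A, H2B and H3, so the type of the 12 untyped models stays unknown. The 4 H1 and 29 H4 models that the tables list under other families are given separately below, as are 2 macroH2A models. Of the 98, 10 are variants with a name of their own and 88 are called core histone genes here.

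RNA came from whole embryos, all in 0.1% dimethyl sulfoxide (DMSO), with 0 µM TBBPA (the DMSO group) or 40 µM TBBPA. Exposure began at 0.75 hours post fertilization (hpf), and embryos were collected at 2, 3.5 and 4.5 hpf. Each of the 6 groups has 4 libraries. The labels do not say whether the 4 came from separate clutches, so p-values measure the spread between libraries, which may be technical. The title of the series names histone acetylation and zygotic transcription as its subjects.

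Core histones form the protein spool around which DNA winds, with H2A, H2B, H3 and H4 in each nucleosome and H1 on the linker between nucleosomes. In animals the core genes lie in multicopy arrays, are transcribed mainly while DNA is copied, and give mRNAs that usually end in a stem-loop instead of a poly(A) tail. Replacement variants such as H2A.Z and H3.3 are single genes with ordinary polyadenylated mRNAs. Early fish embryos divide on a maternal supply of RNA and protein before their own genome becomes active in the blastula.

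Libraries held 10.6 to 20.0 M assigned reads, recovered from the deposited FPKM (a read level divided by gene length and by a size factor of the library). The protocol in the labels names total RNA and random hexamer priming but no selection for or against poly(A), so how fully stem-loop mRNAs were captured is not known, and levels of core and variant genes are not on an equal footing. DMSO replicate 4 at 2 hpf lay farthest from its group, at a root-mean-square distance of 0.342 on the log2(FPKM+1) scale against 0.253 to 0.269 for the other libraries of 2 hpf. Of 13 marker models for cell types absent at these stages, 10 stayed under 1 FPKM in every library, mylpfa was at 0 throughout, nphs1 was tested and called higher in TBBPA at 4.5 hpf (0.41 on the log2(FPKM+1) scale, at 0.867 and 1.47 FPKM), and their summed level was 1.90 to 3.61 FPKM in all groups. In whole embryos, fewer cells of a type and less RNA per cell cannot be told apart.

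Most of the 88 core genes sit in 4 arrays, at positions as the tables give them (the genome build is not given in the sources used here). Chromosome 7 carries 35 models between 5904020 and 6468611 and 7 between 73819078 and 73856073. Chromosome 25 carries 28 models between 35044524 and 35156872 and 16 between 36311333 and 36370292. H2A, H2B and H3 genes are interleaved in each. The other 2 core models are si:ch211-190p8.2 on chromosome 24 and hist2h2l on chromosome 10. Many models share a name: 43 of the 98 models share 9 names, with 11 models named zgc:112234, 7 named zgc:173552 and 6 named hist1h2a4. How alike their sequences are was not examined. How reads that match several copies were assigned is not given in the sources used here, so the value of any 1 copy is uncertain, and sums over each type and array are given beside it. The 35 models of the first chromosome 7 array also lie inside the span of dusp19b, a phosphatase gene, which was at 0.20 FPKM in DMSO at 4.5 hpf.

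At 2 hpf the core histone genes were at low levels and no difference between the treatments was found. Their summed level in the 4 DMSO libraries was 63.3, 63.9, 58.6 and 54.3 FPKM. In the 4 TBBPA libraries it was 54.0, 69.8, 54.2 and 62.0 FPKM, so the groups overlapped and the means were 60.0 in both. By type, the DMSO and TBBPA means were 13.3 and 15.6 FPKM for core H2A and 8.90 and 8.44 for H2B. They were 31.3 and 32.0 FPKM for core H3 and 6.57 and 4.01 for the untyped genes. The groups overlapped in each of these sums. The median core gene had 2.75 reads per DMSO library, which limits what most single copies can show. How large a difference could be detected at this depth was not tested. Of the 98 histone genes, 26 passed the filter (at least 1 FPKM in at least 4 of the 8 libraries). limma on log2(FPKM+1), with Benjamini-Hochberg adjustment over all genes tested and a threshold of 0.05, called 0 of them, and 6 had an unadjusted p under 0.05. The background at 2 hpf was 0% of all 11061 genes tested, with 795 at an unadjusted p under 0.05. Of the 6, 4 were among the 9 tested variants. For the variant h2afva all TBBPA libraries (447 to 491 FPKM) lay below the DMSO libraries (518 to 552 FPKM), though it was not called.

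At 3.5 hpf each core histone type was lower in TBBPA. The summed core level was 346, 353, 331 and 377 FPKM in the DMSO libraries and 154, 173, 162 and 162 FPKM in the TBBPA libraries. All 4 TBBPA libraries lay below all 4 DMSO libraries, and the DMSO mean was 2.16-fold the TBBPA mean. Core H2A genes summed to 76.6 ± 4.2 FPKM in DMSO and 35.7 ± 0.87 in TBBPA (SD, n = 4). For H2B the sums were 72.8 ± 7.7 and 30.3 ± 2.9 FPKM. Core H3 genes summed to 161 ± 11 and 78.9 ± 4.1 FPKM. The 12 untyped genes gave 41.3 ± 2.0 and 17.7 ± 1.3 FPKM. The ranges of the groups did not overlap for any of these sums. The tables of 2 hpf and of the later times were scaled separately, so the step from 60.0 FPKM at 2 hpf to 352 in DMSO and 163 in TBBPA at 3.5 hpf is given without a test.

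Counted by gene, 70 of the 98 histone genes passed the filter at 3.5 hpf. limma called 35 lower and 1 higher in TBBPA at an adjusted p under 0.05, where 5.34% of all genes tested were called lower and 6.67% higher. The called genes held 9 of 17 tested core H2A, 8 of 17 H2B, 10 of 21 core H3 and 5 of 5 untyped genes, all lower. The median difference over the 60 tested core genes was -0.70 on the log2(FPKM+1) scale, against 0.01 over all genes. Over 87 core genes, without the filter, it was -0.54. Over all 88 core genes, tested or not, 44 had every TBBPA library below every DMSO library. Among the 60 tested this held for 37, beside 6.82% of all genes tested. The DMSO libraries alone could let a gene pass the filter. A mean of at least 1 FPKM was reached by 67 core genes in DMSO and 50 in TBBPA. Without the filter, 31 of 97 histone genes were called lower and 1 higher. Shares of all genes, here and below, belong to the filtered fits, and none is given for fits without the filter.

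At 4.5 hpf the gap had widened in every type. The summed core level was 978, 931, 989 and 1028 FPKM in the DMSO libraries and 173, 174, 166 and 186 FPKM in the TBBPA libraries. No TBBPA library came near a DMSO library, and the DMSO mean was 5.62-fold the TBBPA mean. In DMSO the core genes made up 0.235% ± 0.0080 of all FPKM in a library, and in TBBPA 0.0472% ± 0.0024 (SD, n = 4). Core H2A genes summed to 188 ± 8.8 FPKM in DMSO and 36.2 ± 4.2 in TBBPA, a 5.20-fold difference. H2B genes summed to 171 ± 7.0 and 26.6 ± 2.6 FPKM, which is 6.44-fold. Core H3 genes summed to 504 ± 19 and 91.6 ± 4.5 FPKM, or 5.50-fold, and the untyped genes to 118 ± 11 and 20.2 ± 1.0 FPKM, or 5.85-fold. The make-up of the core sum stayed close between the groups, with H3 at 51.4% ± 1.1 in DMSO and 52.5% ± 1.3 in TBBPA, H2A at 19.2% ± 0.45 and 20.7% ± 1.5, and H2B at 17.5% ± 0.35 and 15.2% ± 1.4. The H2B shares did not overlap between the groups, while those of H2A and H3 did.

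**Figure D1:**
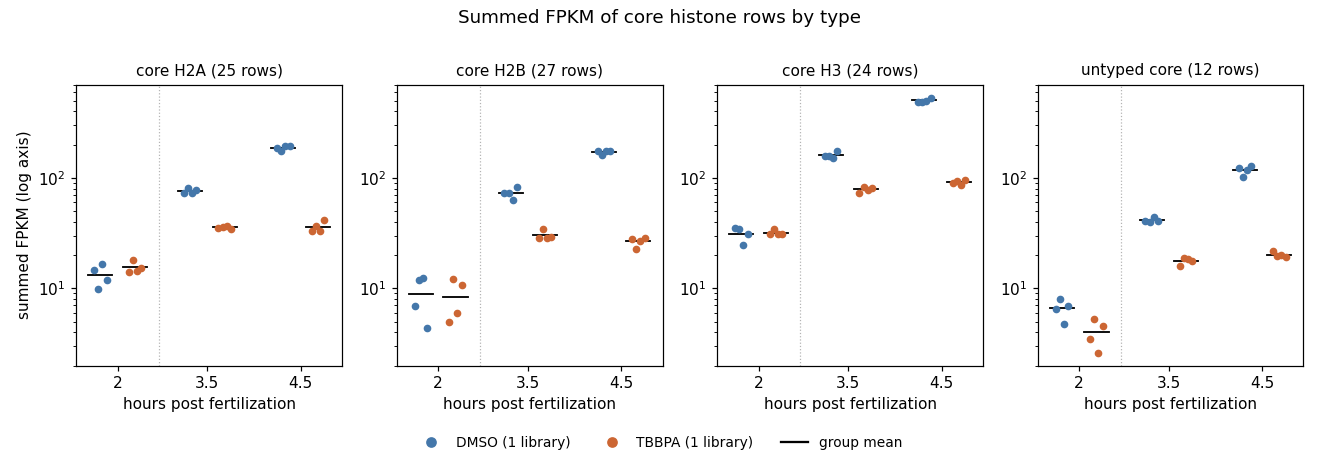
Summed FPKM of the core histone genes by type in each library (points, log axis), with the group mean as a bar, for DMSO and TBBPA at 2, 3.5 and 4.5 hpf. The dotted line separates the 2 tables, which were scaled separately. At 2 hpf the groups overlap, and at 3.5 and 4.5 hpf every TBBPA point lies below every DMSO point of the same time, with core H3 at 504 FPKM in DMSO and 91.6 in TBBPA at 4.5 hpf.

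By gene, 83 of the 98 passed the filter at 4.5 hpf, and limma called 80 lower and 2 higher in TBBPA, where 35% of all genes tested were called lower and 33.1% higher. The only tested gene not called was a copy of hist1h2a10 (difference -0.57, adjusted p = 0.054). The median over the 73 tested core genes was -1.68 on the log2(FPKM+1) scale, against -0.02 over all genes. Over 87 core genes, without the filter, it was -1.46. Of all 88 core genes, 76 had every TBBPA library below every DMSO library. Among the 73 tested this held for 67, against 32.3% of all genes tested. Here too the DMSO libraries alone could let a gene pass the filter. A mean of at least 1 FPKM was reached by 81 core genes in DMSO and 45 in TBBPA. Without the filter, 89 of 97 histone genes were called lower and 2 higher, with no share of all genes given for that fit. Scaling by TPM or by total reads moved the median of all genes at 4.5 hpf from -0.02 to 0.13 and 0.10, and the split over all genes from 4075 higher and 4317 lower to 5406 and 2772 with TPM. Under both scalings 79 histone genes were called lower and 2 higher, and no called histone gene turned its direction.

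**Figure D2:**
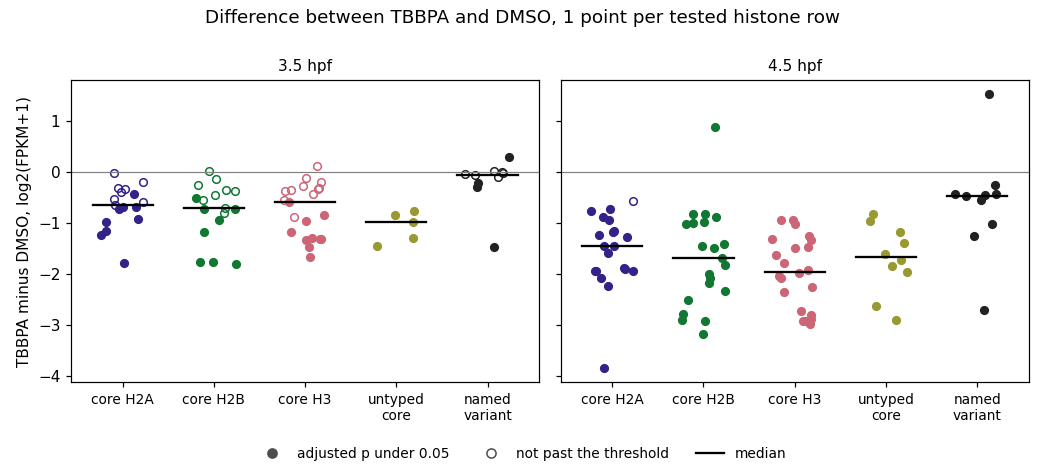
TBBPA minus DMSO on the log2(FPKM+1) scale for each histone gene that passed the filter, by type, at 3.5 hpf (left, 70 genes) and 4.5 hpf (right, 83 genes). Filled points passed an adjusted p of 0.05 in limma, and bars are medians over the tested genes. At 4.5 hpf the points above 0 are h2af1al, a variant, and si:ch211-190p8.2, an H2B gene outside the arrays.

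Both chromosomes with arrays had lower sums in TBBPA at both times. The 42 genes on chromosome 7 summed to 144 ± 8.3 FPKM in DMSO and 78.9 ± 4.0 in TBBPA at 3.5 hpf, a 1.82-fold difference. The 44 on chromosome 25 summed to 205 ± 11 and 80.6 ± 4.5 FPKM, a 2.54-fold difference. The 2 arrays of a chromosome were close to each other, with 1.82-fold and 1.81-fold on chromosome 7 and 2.53-fold and 2.59-fold on chromosome 25. At 4.5 hpf chromosome 7 gave 399 ± 20 and 79.7 ± 3.7 FPKM (5.0-fold) and chromosome 25 gave 581 ± 23 and 91.0 ± 6.0 FPKM (6.38-fold). Whether the chromosomes differ was not tested, and copies on both may share reads. The 6 other sequences that hold histone genes carry mainly variants. At 3.5 hpf DMSO was 1.17-fold higher on chromosome 3 and 1.13-fold on chromosome 5, the groups overlapped on chromosomes 10, 15 and 24, and TBBPA was 1.22-fold higher on scaffold KN150699.1. At 4.5 hpf DMSO was 1.36-fold to 2.03-fold higher on the 5 chromosomes, and TBBPA was 2.87-fold higher on the scaffold.

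The single core gene with the highest level was hist2h3c (ENSDARG00000094154, chromosome 25, 35051656 to 35052155), an H3 gene. At 3.5 hpf it was at 39.1, 37.8, 34.8 and 40.9 FPKM in DMSO and 10.5, 11.2, 11.8 and 11.7 FPKM in TBBPA. At 4.5 hpf the DMSO libraries had risen to 132, 121, 123 and 132 FPKM and the TBBPA libraries stood at 14.5, 17.0, 15.4 and 18.9 FPKM. The groups were far apart at both times. The difference at 4.5 hpf was -2.88 on the log2(FPKM+1) scale (SE 0.072, limma adjusted p = 1.2e-08). Alone it made up 12.9% of the core sum in DMSO at that time, and the 10 highest core genes together 47.0%.

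The largest difference of any histone gene at 4.5 hpf was in a copy of hist1h2a4 (ENSDARG00000105400, chromosome 7, 6361991 to 6362460), an H2A gene. In DMSO it went from 9.33, 8.14, 10.5 and 6.05 FPKM at 3.5 hpf to 44.7, 37.7, 51.0 and 49.2 FPKM at 4.5 hpf. In TBBPA it was 1.57, 1.98, 1.78 and 1.60 FPKM and then 1.96, 1.44, 2.90 and 2.83 FPKM. The TBBPA libraries thus stayed near the level of 3.5 hpf, and the mean at 4.5 hpf was 20.0-fold higher in DMSO. Over the 6 genes of that name, means at 4.5 hpf ran from 0.690 to 45.7 FPKM in DMSO and from 0.227 to 7.89 in TBBPA, with medians of 7.92 and 1.34.

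Among H2B genes, a copy of zgc:112234 (ENSDARG00000111934, chromosome 25, 35058088 to 35058462) had the highest level of any. At 4.5 hpf it was at 38.1, 38.5, 38.9 and 38.0 FPKM in DMSO and 2.46, 2.88, 3.63 and 4.83 FPKM in TBBPA. The difference was -3.17 (SE 0.14, limma adjusted p = 7.2e-08), with no overlap. Another copy of that name on chromosome 7 (ENSDARG00000105340, 6428579 to 6429031) was called at 4.5 hpf (-2.90) and missed the threshold at 3.5 hpf (-0.46, adjusted p = 0.16), though not without DMSO replicate 2 of that time (-0.64, adjusted p = 0.018). For si:dkey-261m9.6 (ENSDARG00000116654) the DMSO libraries at 4.5 hpf held 20.7, 22.5, 17.7 and 20.3 FPKM and the TBBPA libraries 0.722, 1.98, 3.29 and 1.77 FPKM. CR354435.2 (ENSDARG00000109737) had the largest difference of the histone genes at 3.5 hpf, -1.81 (adjusted p = 6.0e-05). Its DMSO libraries held 6.80, 6.63, 6.35 and 9.38 FPKM at that time and its TBBPA libraries 1.21, 1.15, 2.08 and 1.08 FPKM. Over time in DMSO it did not pass the threshold (0.24, adjusted p = 0.20).

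The remaining genes named by the largest differences were mostly H3. FQ312024.1 was 31.7, 27.9, 30.03 and 26.7 FPKM in DMSO at 4.5 hpf and 3.29, 2.30, 2.68 and 3.09 FPKM in TBBPA, a difference of -2.97. HIST2H3C (ENSDARG00000115644), in the same array, was 47.4, 51.9, 53.9 and 57.8 FPKM in DMSO and 5.01, 5.75, 7.10 and 6.76 FPKM in TBBPA. In neither gene did the groups come close. A copy of zgc:173552 (ENSDARG00000114334) and CU457819.3 differed by -2.92 and -2.81. zgc:114046, which could not be typed, went from 31.2 FPKM (mean) in DMSO to 3.29 in TBBPA, a difference of -2.90. Each of these was also called lower at 3.5 hpf, by -1.29 to -1.48.

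The variants with a name of their own did not move as 1 group. In DMSO at 4.5 hpf their means ran from 9.89 FPKM (h3f3c) to 2479 FPKM (the chromosome 3 copy of h3f3b.1), beside 127 FPKM for the highest core gene. Together the 10 variants summed to 4890 ± 195 FPKM in DMSO and 5085 ± 131 in TBBPA at 3.5 hpf, where the groups overlapped. At 4.5 hpf they summed to 5565 ± 188 and 4686 ± 133 FPKM, and all TBBPA libraries lay below the DMSO libraries. The log2 ratio of these sums, -0.25, came to -0.071 with TPM scaling, -0.11 with total-count scaling and -0.51 without the highest variant of each type. limma called 3 of the 10 lower and 1 higher at 3.5 hpf, beside 5.34% and 6.67% of all genes, and 9 lower and 1 higher at 4.5 hpf, beside 35% and 33.1%.

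The variant called higher at both times was h2af1al (ENSDARG00000098739, on the unplaced scaffold KN150699.1, 14154 to 15108), an H2A gene. At 2 hpf it was at 3612, 3719, 4056 and 3039 FPKM in DMSO and 3160, 3036, 3367 and 3535 in TBBPA, with overlap. By 3.5 hpf it stood at 2129, 2022, 1948 and 1830 FPKM in DMSO and 2604, 2437, 2282 and 2353 in TBBPA. By 4.5 hpf it was 640, 695, 572 and 490 FPKM in DMSO and 1943, 1740, 1602 and 1592 in TBBPA. Every TBBPA library was above every DMSO library at the 2 later times. The differences were 0.29 (SE 0.049, limma adjusted p = 0.0040) and 1.53 (SE 0.10, adjusted p = 6.5e-07). From 3.5 to 4.5 hpf it fell by 1.73 in DMSO and by 0.50 in TBBPA, both past the threshold. With it included, the sum over all 30 H2A genes was 1.38-fold higher in TBBPA than in DMSO at 4.5 hpf, while the sum of the 25 core H2A genes was 5.20-fold higher in DMSO.

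**Figure D3:**
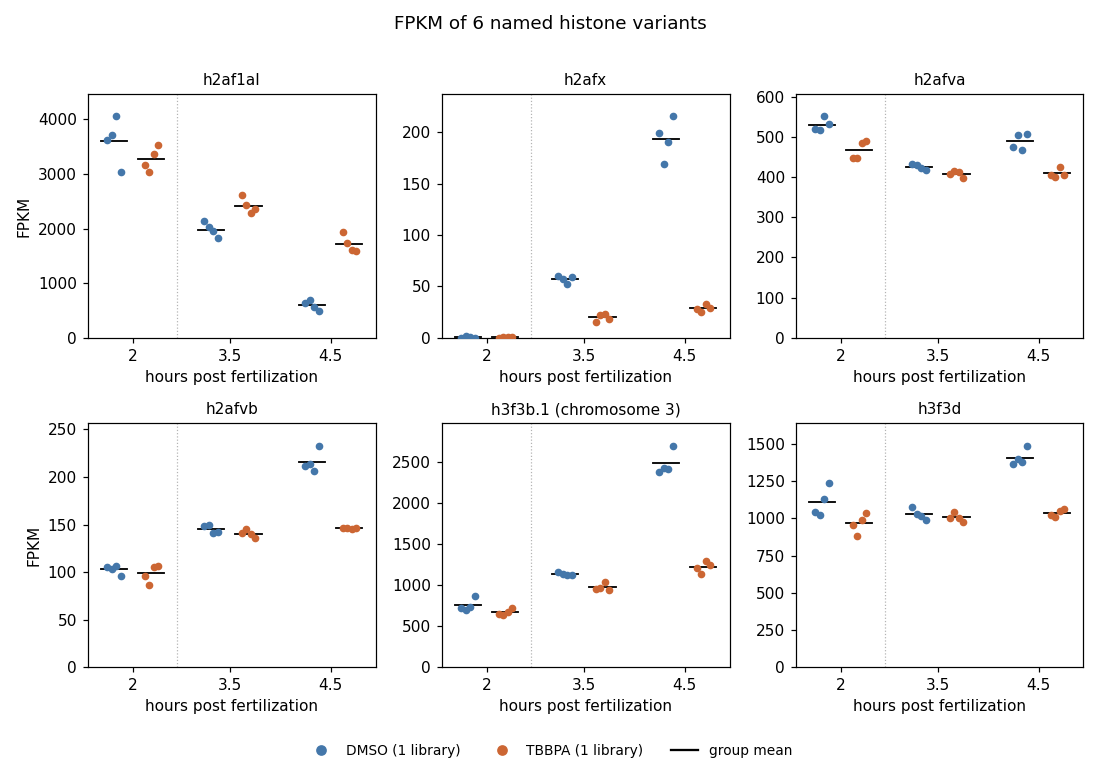
FPKM of 6 named variants in each library (points), with the group mean as a bar, for DMSO and TBBPA at 2, 3.5 and 4.5 hpf. The dotted line separates the 2 tables. The gene h2af1al falls over time and is higher in TBBPA at 3.5 and 4.5 hpf, at 1719 against 599 FPKM at 4.5 hpf. In contrast, h2afx and the chromosome 3 copy of h3f3b.1 rise in DMSO and are lower in TBBPA at those times.

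h2afx (ENSDARG00000029406, chromosome 5, 30534702 to 30535327) encodes H2A.X, whose phosphorylated form marks DNA breaks. At 3.5 hpf it was at 60.0, 57.1, 52.3 and 58.8 FPKM in DMSO and 15.7, 22.3, 23.7 and 18.8 in TBBPA. At 4.5 hpf it was at 199, 169, 191 and 216 FPKM in DMSO and 28.0, 25.04, 33.1 and 29.0 in TBBPA. The groups did not overlap, and the differences of -1.47 (SE 0.11, limma adjusted p = 3.6e-05) and -2.71 (SE 0.087, adjusted p = 3.2e-08) lay within the range of the core genes. The related h2afx1 was lower too, by -0.30 at 3.5 hpf (adjusted p = 0.048, a call lost under 10 of 17 alternatives, 7 of them with 1 library left out, at an adjusted p of 0.12 or less) and by -1.26 at 4.5 hpf (adjusted p = 2.9e-07).

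Both genes of H2A.Z, the variant found beside gene starts, differed by less. h2afva was at 475, 504, 468 and 507 FPKM in DMSO and 405, 400, 425 and 406 in TBBPA at 4.5 hpf, which differed by -0.26 (SE 0.034, adjusted p = 6.7e-05). For h2afvb the libraries held 212, 214, 206 and 233 FPKM in DMSO and 147, 146, 146 and 146 in TBBPA, a difference of -0.56 (SE 0.037, adjusted p = 6.1e-07). Neither overlapped at 4.5 hpf, and neither passed the threshold at 3.5 hpf (-0.06 and -0.05, adjusted p = 0.092 and 0.30), though h2afva did with median-of-ratios scaling (-0.070, adjusted p = 0.037). With the libraries scaled to their TPM sum the difference of h2afva at 4.5 hpf came to -0.08, still past the threshold (adjusted p = 0.024). h2afvb overlaps ved on the other strand, and since the labels name kits with and without strand marking, reads of the pair cannot be told apart.

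H3.3 is the H3 laid down outside DNA replication, and 5 genes of this group were measured. The chromosome 3 copy of h3f3b.1 (ENSDARG00000020504, 45776370 to 45778123) was at 1165, 1137, 1120 and 1117 FPKM in DMSO and 950, 961, 1038 and 945 in TBBPA at 3.5 hpf. At 4.5 hpf it was at 2379, 2424, 2414 and 2697 FPKM in DMSO and 1203, 1140, 1291 and 1240 in TBBPA. All TBBPA libraries were lower at both times, by -0.22 (SE 0.030, limma adjusted p = 0.0011) and -1.02 (SE 0.048, adjusted p = 9.3e-08). h3f3d was at 1025 ± 36 FPKM in DMSO and 1005 ± 27 in TBBPA at 3.5 hpf and at 1406 ± 56 and 1036 ± 24 at 4.5 hpf, where it differed by -0.44 (adjusted p = 1.1e-06) and by -0.26 with TPM scaling. The 2 copies of h3f3b.1 on chromosome 15, which overlap an opposite-strand model, differed by -0.43 and -0.45 at 4.5 hpf (-0.26 and -0.28 with TPM scaling) and did not pass the threshold at 3.5 hpf. h3f3c, the weakest of the group with a mean of 9.89 FPKM in DMSO at 4.5 hpf, differed by -0.48 at 4.5 hpf (adjusted p = 0.0016). The sum over all 29 H3 genes, core and variant, was 1.85-fold higher in DMSO at 4.5 hpf.

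Over time the core genes rose in DMSO and stayed near level in TBBPA. From 3.5 to 4.5 hpf the core sum went from 352 ± 19 to 982 ± 40 FPKM in DMSO, 2.79-fold higher. In TBBPA it went from 163 ± 7.9 to 175 ± 8.3 FPKM, 1.07-fold, and the 2 times overlapped. Core H3 rose 3.13-fold in DMSO, and its TBBPA libraries of 4.5 hpf also lay above those of 3.5 hpf, by 1.16-fold. In DMSO limma called 74 of 87 tested histone genes higher and 2 lower, where 35.8% of all genes tested were called higher and 34.3% lower. The DMSO libraries of 4.5 hpf alone could let a gene pass the filter there. Without the filter, 75 of 97 histone genes were called higher and 2 lower in DMSO, with no share of all genes given for that fit. In TBBPA limma called 4 of 57 tested histone genes higher and 2 lower, where 6.15% of all genes were called higher and 8.6% lower. The 4 were hist2h3c (0.50), FQ312024.1 (0.41), the chromosome 3 copy of h3f3b.1 (0.32) and h2afx (0.51), and the 2 were h2af1al (-0.50) and a copy of si:ch211-113a14.22 (-0.39). Without TBBPA replicate 4 of 4.5 hpf the count of 6 fell to 3, and it was also 3 without the filter on low values.

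**Figure D4:**
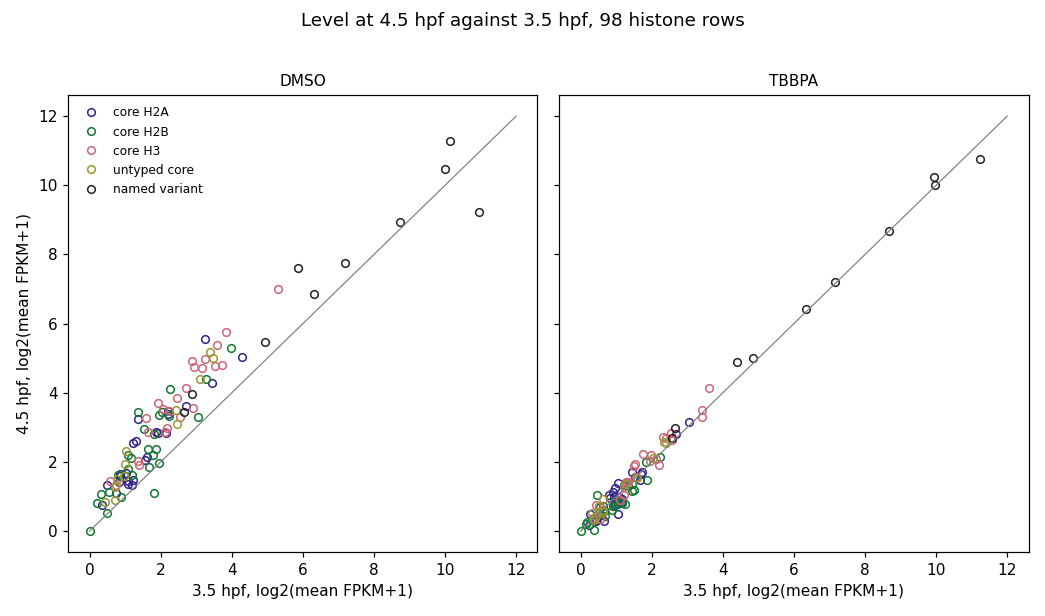
Group mean at 4.5 hpf against 3.5 hpf for each of the 98 histone genes on the log2(mean FPKM+1) scale, in DMSO (left) and TBBPA (right), with the line of equal level. In DMSO nearly all core genes lie above the line, and in TBBPA they lie along it. The variant below the line in both is h2af1al, which went from 1982 to 599 FPKM in DMSO and from 2419 to 1719 in TBBPA.

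The change over time was tested directly between the treatments as an interaction over the 16 libraries of both times. It was past the threshold for 71 of 87 tested histone genes, 69 of them with the more negative difference at 4.5 hpf, where 26.6% of all genes tested were called in that direction and 26.3% in the other. The median over the 77 tested core genes was -0.95, against -0.0024 over all genes. Over 87 core genes, without the filter, it was -0.90. The DMSO libraries of 4.5 hpf alone could let a gene pass the filter. Without the filter, 62 of 97 histone genes were called with the more negative difference at 4.5 hpf and 1 in the other direction. No share of all genes is given for that fit. All 10 variants were among the 71, and h2af1al (1.24) and si:ch211-190p8.2 (0.86, adjusted p = 0.026) were the 2 in the other direction. With TPM or total-count scaling 8 of the 10 variants were called, without h2afva and h3f3c. The call of si:ch211-190p8.2 was lost without the filter on low values (adjusted p = 0.060) and without each of 5 single libraries, DMSO replicate 2 or TBBPA replicate 4 of 3.5 hpf and DMSO replicate 4 or TBBPA replicate 1 or 4 of 4.5 hpf (0.052 to 0.058).

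si:ch211-190p8.2 (ENSDARG00000088276, chromosome 24, 34069675 to 34072088), listed by the reference names as H2BK1, is the H2B gene outside the arrays and was singled out after its values were seen. In DMSO it was at 2.56, 3.15, 2.18 and 2.08 FPKM at 3.5 hpf and 1.25, 1.14, 1.80 and 0.467 at 4.5 hpf. In TBBPA it was at 2.61, 3.06, 2.94 and 1.67 and then 3.51, 1.84, 2.21 and 4.53 FPKM. The groups overlapped at 3.5 hpf and not at 4.5 hpf, where TBBPA was higher by 0.88 (SE 0.24, limma adjusted p = 0.0078). hist2h2l, the other core gene outside the arrays, stayed under 1.2 FPKM in every library and was not tested.

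H4 and H1 genes complete the nucleosome, and the models given here lie outside the rule. The 29 H4 models summed to 86.9 ± 3.7 FPKM in DMSO and 35.8 ± 1.7 in TBBPA at 3.5 hpf and to 192 ± 6.0 and 35.1 ± 3.1 at 4.5 hpf, 2.43-fold and 5.47-fold lower in TBBPA with no overlap. Of these, 12 of 21 tested were called lower at 3.5 hpf and 25 of 25 at 4.5 hpf, beside 5.34% and 35% of all genes. The DMSO libraries alone could let an H4 model pass the filter, and without it 10 of 28 and 26 of 28 were called lower. The shares of all genes are those of the filtered fits. Of the 4 linker histone genes, all tested at 4.5 hpf, 3 were called lower and 1 higher, beside 35% and 33.1% of all genes. The counts were the same without the filter. h1m, the maternal linker histone of fish oocytes and early embryos, was at 731 ± 20 FPKM in DMSO and 801 ± 18 in TBBPA at 3.5 hpf and at 544 ± 34 and 777 ± 32 at 4.5 hpf, higher in TBBPA by 0.13 and 0.51 (adjusted p = 0.0067 and 4.1e-06). histh1l, another H1 gene, was at 36.7 ± 4.3 FPKM in DMSO and 2.23 ± 0.79 in TBBPA at 4.5 hpf, a difference of -3.57 (adjusted p = 7.2e-08). h1f0 and h1fx were lower by -1.47 and -0.38 (adjusted p = 8.1e-06 and 0.010). h1f0, at 2.29 FPKM in DMSO and 0.198 in TBBPA, passed the filter through the DMSO libraries alone. Neither of the 2 macroH2A genes was called at 3.5 or 4.5 hpf by limma, and none had an unadjusted p under 0.05.

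As a list, genes that make and process histone mRNA differed less than the core genes, and in both directions at 4.5 hpf. Of 22 tested, limma called 3 at 3.5 hpf, all higher, beside 6.67% of all genes, and 5 higher and 13 lower at 4.5 hpf, beside 33.1% and 35%, with a median of -0.20 against -0.02 over all genes. With TPM scaling the split at 4.5 hpf was 7 and 7, and ncbp2 and upf1 turned from lower to higher. Over all 12333 genes tested with that scaling, 5406 were called higher and 2772 lower. lsm1, a decay factor that also acts on histone mRNA, was at 26.5 ± 0.78 FPKM in DMSO and 40.3 ± 1.6 in TBBPA at 3.5 hpf and at 8.07 ± 2.1 and 35.5 ± 3.4 at 4.5 hpf. npat, the coactivator of histone gene clusters in mammals, was 40.8 ± 0.77 and 49.2 ± 2.0 FPKM at 3.5 hpf and 21.3 ± 1.4 and 42.3 ± 2.2 at 4.5 hpf. lsm11, of the U7 particle that cuts histone pre-mRNA, was higher in TBBPA by 0.18 and 1.03, the first not past the threshold without DMSO replicate 4 of 3.5 hpf or with 1 fit over both times. These examples, lsm1, npat and lsm11, were higher in TBBPA at both times. Among the 13 called lower at 4.5 hpf was ccne2 (-2.18), given below.

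Stem-loop binding proteins, which bind the 3′ end of core histone mRNA, went in opposite directions at 4.5 hpf. slbp2, an oocyte form in fish and frogs, was at 20.8 ± 2.6 FPKM in DMSO and 49.2 ± 2.7 in TBBPA (1.21, adjusted p = 7.0e-07). slbp, named here after its values were seen, was at 144 ± 8.7 and 99.4 ± 2.6 FPKM (-0.53, adjusted p = 2.0e-06). Neither was called at 3.5 hpf, except slbp with median-of-ratios scaling. ccne2, a cyclin of S-phase entry, was at 32.7 ± 4.1 FPKM in DMSO and 6.45 ± 1.0 in TBBPA at 4.5 hpf (-2.18, adjusted p = 1.5e-07).

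Histone chaperones, which carry histones to and from DNA, showed smaller differences than the core genes. Of 37 tested, 2 were called higher and 3 lower at 3.5 hpf, beside 6.67% and 5.34% of all genes, and 8 higher and 25 lower at 4.5 hpf, beside 33.1% and 35%, with a median of -0.23. With TPM scaling the split at 4.5 hpf was 10 higher and 13 lower, and chaf1a, ubn2b and mms22l turned from lower to higher. Over all 12333 genes tested with that scaling, 5406 were called higher and 2772 lower. rbbp4, a subunit of CAF-1, differed most: 63.1 ± 4.8 FPKM in DMSO and 26.7 ± 1.6 in TBBPA at 4.5 hpf (-1.21, adjusted p = 1.4e-07). nap1l4b, a carrier of H2A and H2B, was higher in TBBPA by 0.28 and 0.79 at the 2 times, and asf1bb, a carrier of H3 and H4, by 0.70 at 4.5 hpf. hira, which places H3.3, was higher by 0.30 at 3.5 hpf (adjusted p = 0.013), and cabin1 of the same complex and srcap, which places H2A.Z, were lower by -0.42 and -0.33 (adjusted p = 0.049 and 0.036). nap1l4a was lower by -0.69 at 4.5 hpf (adjusted p = 0.043). Of 17 alternatives each, 10 lost the call of cabin1, 8 that of srcap and 9 that of nap1l4a, most of them with 1 library left out, at an adjusted p of 0.13 or less.

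Markers of the blastula stage differed in both directions. Of 13 tested, 9 were called lower and 4 higher in TBBPA at 4.5 hpf, beside 35% and 33.1% of all genes, and btg4 was at 0 in every library. Their summed level was 3931 to 4079 FPKM in DMSO and 3263 to 3436 in TBBPA, and at 3.5 hpf, where 3 were called higher and 5 lower, 3586 to 3654 and 3455 to 3555. Among the higher was sox19b, a maternal transcript, at 74.9 FPKM in DMSO and 325 in TBBPA. Among the lower was chrd, a transcript of the embryo's own genome, at 49.96 and 3.14 FPKM. Of this list 6 genes passed the filter at 2 hpf and only 4 were called higher at 4.5 hpf. Some genes already present at 2 hpf were therefore among those called lower. sox19b and chrd are single examples from the list. The part of embryonic stage or developmental timing in the histone differences was not tested.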

How the data were processed

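RNA of 24 libraries was analysed in 6 groups of 4. The authors deposited FPKM and gene lengths (bases per model), per the file headers, in 2 tables scaled separately, 1 for 2 hpf and 1 for 3.5 and 4.5 hpf. The submitters' processing notes name HISAT2 2.0.5 and featureCounts 1.5.0-p3. No build or rule for multi-mapping reads was found in the labels. FPKM times length gave whole reads for 100% of values within 0.001.

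Each comparison used limma 3.58.1 (R 4.3.3, trended moderated variance) on log2(FPKM+1), 2-sided, over all genes reaching 1 FPKM in 4 or more libraries, with Benjamini-Hochberg adjustment at 0.05. The pseudocount of 1 understates differences of low genes. Sums over types and arrays carry no p-value. Models of 411 bases were typed as H3, of 387 as H2A, and of 374 or 375 as H2B, though no annotated model has 375. Members and lists were chosen with earlier results of these data known. Named genes are the 10 largest called differences per comparison with a mean of at least 5 FPKM, the 2 highest per type, all named variants, and the 4 largest per list of related genes. Scripts were tested on simulated data. Gene sequences and promoters were not analysed here. Alternatives changed the pseudocount, filter, scaling, model, replicate block and libraries. At 2 hpf and for the interaction, median-of-ratios scaling gave the counts and medians of the deposited values over all genes. It was therefore no separate alternative there, while total-count scaling gave other medians.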

Additional observations from a re-analysis of the deposited data

Results flagged for a closer look

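The TBBPA difference at 4.5 hpf differed from that at 3.5 hpf, by the limma interaction at an adjusted p under 0.05, in each of the 21 named genes. Of all genes tested, 26.3% were called in the positive and 26.6% in the negative direction. Several of the 21 were named for the size of their difference at 4.5 hpf, which favours a call here. The interaction, on the log2(FPKM+1) scale, was -2.44 for the chromosome 7 copy of zgc:112234, -2.07 for hist1h2a4, -1.64 for FQ312024.1, -1.63 for HIST2H3C, -1.48 for CU457819.3, -1.45 for both zgc:173552 and zgc:114046, -1.41 for the chromosome 25 copy of zgc:112234, -1.21 for hist2h3c, -1.15 for si:dkey-261m9.6 and -0.70 for CR354435.2. Among the variants it was 1.24 for h2af1al, -1.24 for h2afx, -0.96 for h2afx1, -0.80, -0.46 and -0.36 for the copies of h3f3b.1, -0.51 for h2afvb, -0.48 for h3f3c, -0.41 for h3f3d and -0.20 for h2afva. With TPM scaling the calls of h2afva (-0.032, adjusted p = 0.42), h3f3c (-0.33, adjusted p = 0.099) and CR354435.2 (-0.56, adjusted p = 0.057) were lost, with total-count scaling those of h2afva and h3f3c, and with voom those of all 3.

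In 10 of 162 groups of 4 libraries examined, 1 library lay apart from the other 3. The rule sets about 1 in 20 apart by chance for independent groups of normal values. That rate does not hold for groups that are mostly 0 or for sums that share genes with other groups. CR354435.2 was 9.38 FPKM in DMSO replicate 4 and 2.08 in TBBPA replicate 3 of 3.5 hpf. CU457819.3 was 0.626 FPKM in DMSO replicate 2 of 2 hpf, where the others had 0. The chromosome 7 copy of zgc:112234 was 0.489 FPKM in TBBPA replicate 1 of 2 hpf and 1.47 in TBBPA replicate 4 of 4.5 hpf. The chromosome 3 copy of h3f3b.1 was 1038 FPKM in TBBPA replicate 3 of 3.5 hpf and 2697 in DMSO replicate 4 of 4.5 hpf. Summed core H2B was 34.7 FPKM in TBBPA replicate 2 of 3.5 hpf and 161 in DMSO replicate 2 of 4.5 hpf, and summed core H3 was 34.3 FPKM in TBBPA replicate 2 of 2 hpf.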

How the results depend on the processing

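Counts of called histone genes stayed within 1.5 times of the reported value in 5 of 6 comparisons, at 32 to 41 for TBBPA at 3.5 hpf (36 reported), 71 to 91 at 4.5 hpf (82), 68 to 78 over time in DMSO (76) and 49 to 73 for the interaction (71), with voom on recovered reads among them. At 2 hpf the count was 0 in each. Over time in TBBPA, 6 genes became 3 without the filter on low values, and 3 to 8 with 1 library left out. Whether the replicate numbers pair the libraries was not settled. Correlations of same-numbered libraries ran from -0.08 to 0.19, above those with other numbers for some libraries and below for others. With the number as a replicate block the counts were 39 at 3.5 hpf, 83 at 4.5 hpf, 78 and 9 over time in DMSO and TBBPA, and 73 for the interaction. The log2 ratio of the core sum at 4.5 hpf, -2.49, moved to -2.31 with TPM scaling, -2.35 with total-count scaling, -2.40 without the highest gene of each type and -2.32 for summed reads, and at 3.5 hpf from -1.11 to -0.99 without the highest gene of each type. The variant sum at 3.5 hpf changed sign from 0.056 to -0.068 without its highest genes. h3f3c at 3.5 hpf, near 0, reversed from 0.00581 to -0.00303 with median-of-ratios scaling, and ran from -0.082 to 0.098 with 1 library left out (-0.082 without DMSO replicate 4, -0.024 and -0.069 without TBBPA replicates 1 and 3). The cause of these shifts was not tested. A fit on reads summed per type was not run as a test, since a score over chosen members gets no p. Low reads at 2 hpf limit what single copies can show.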
